A study of Mus musculus with 25 samples.

Results

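The contacts described here are H3K27ac HiChIP contacts of TKO cells at peaks lost with doxycycline: pairs of 10 kb bins in which at least 1 bin holds an H3K27ac peak of the 0 h set without a peak of the 24 h set, and neither bin holds a 24 h peak alone. There were 9367 such pairs among the 109776 pairs of the TKO lists, and among 493983 pairs in the 9 contact lists of the study. They were chosen by the authors' peak annotation of the bins at both times, so every difference between 0 h and 24 h in these pairs is given as a description, and a fit of that contrast over all pairs served only to pick contacts to name. The peak sets carry no height in the lists, so pairs just inside and outside a peak threshold cannot be shown. A further 231 pairs joined a lost peak to a peak of 24 h alone and were outside the choice.

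Cells labelled TKO, an abbreviation that the labels do not spell out, are listed as V6.5 embryonic stem (ES) cells kept in 2i medium. They were profiled without doxycycline (0 h, 3 libraries) and after doxycycline for 24 h (3 libraries), both with an antibody against H3K27ac. V6.5 ES cells in 2i without doxycycline gave 2 H3K27ac, 4 KLF4 and 2 Hi-C libraries. Fibroblasts of E13.5 mouse embryos (MEFs), heterozygous for an Oct4-GFP reporter, the OKSM cassette and rtTA3, gave 2 H3K27ac and 2 Hi-C libraries at passage 3. The same MEFs after 3 days of doxycycline and ascorbic acid, taken in bulk, gave 3 KLF4 libraries. Cells sorted for SSEA1 at day 6 of that treatment gave 4 KLF4 libraries, used here only for which contacts they list. Contact totals (M, mega) ran from 80.5 to 109.9 M per library at 0 h and from 68.3 to 101.7 M at 24 h, and a listed pair held a median of 22 to 35 counts per library. Of 12 stem cell markers, 10 (all but Sox2 and Esrrb) had a promoter bin in the TKO lists, with 123 contacts at 0 h and 112 at 24 h. Of 12 fibroblast markers, 7 had a promoter bin in the TKO lists, with 16 contacts at 0 h and 11 at 24 h. Counting those without a bin, 6 of the 12 had 0 contacts at each time, with Zeb1 among them at 0 h and Thy1 at 24 h. Contacts of a bin say nothing of how many cells carry them, so fewer cells with a contact and weaker contact per cell cannot be told apart.

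H3K27ac is a histone mark of active enhancers and promoters, and HiChIP enriches ligated pairs of nearby DNA in which 1 end carries the marked chromatin. Loops between enhancers and promoters are 1 way in which distal elements reach genes. In ES cells the KLF factors, zinc finger proteins that bind GC-rich CACCC-type boxes, work beside OCT4, SOX2, NANOG and ESRRB in the network that holds the naive state. LIF and BMP signals feed into this network, the latter in part through the Id genes.

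Promoters are shown for 4 genes at lost-peak bins because they carry the examples below: Eras, Sfxn3 and Lgals7 lie in bins with many contacts, and Klf8 is a KLF gene whose own bin lost its peak. Each sequence is the 250 bases before the gene's start, 5′ to 3′ on the gene's strand, from RefSeq on GRCm38.p6 (mm10), with any match to a KLF box in capitals. The KLF box searched was GGGNGTGG, on both strands.
Eras, chrX:7928608-7928857, minus strand: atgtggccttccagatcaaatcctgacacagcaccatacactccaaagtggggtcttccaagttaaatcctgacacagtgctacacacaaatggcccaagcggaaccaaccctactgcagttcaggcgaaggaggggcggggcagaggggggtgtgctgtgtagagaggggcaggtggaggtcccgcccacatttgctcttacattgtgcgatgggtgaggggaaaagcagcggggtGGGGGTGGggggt
Sfxn3, chr19:45047326-45047575, plus strand: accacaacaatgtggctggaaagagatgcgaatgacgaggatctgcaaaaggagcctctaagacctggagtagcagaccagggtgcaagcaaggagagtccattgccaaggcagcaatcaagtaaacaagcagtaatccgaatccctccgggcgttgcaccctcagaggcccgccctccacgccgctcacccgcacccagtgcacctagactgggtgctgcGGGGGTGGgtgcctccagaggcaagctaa
Klf8, chrX:153237498-153237747, plus strand: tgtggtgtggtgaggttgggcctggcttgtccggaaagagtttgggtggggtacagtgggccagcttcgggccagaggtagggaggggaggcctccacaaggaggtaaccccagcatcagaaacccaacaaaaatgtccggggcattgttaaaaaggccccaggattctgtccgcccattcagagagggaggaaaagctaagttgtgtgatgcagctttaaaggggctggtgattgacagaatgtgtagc
Lgals7, chr7:28864136-28864385, plus strand: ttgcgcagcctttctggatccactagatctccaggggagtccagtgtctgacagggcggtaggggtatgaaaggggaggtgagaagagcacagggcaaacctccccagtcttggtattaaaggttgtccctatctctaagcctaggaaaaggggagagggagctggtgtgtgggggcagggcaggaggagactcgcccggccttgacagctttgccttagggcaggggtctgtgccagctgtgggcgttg

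The Eras and Sfxn3 promoters each hold 1 match close to the start, and these letters are not in the Klf8 and Lgals7 windows. Of 565 genes that the authors assign to lost-peak bins, 408 matched a promoter in the RefSeq table. Among the 747 promoters that start in lost-peak bins, 146 (19.5%) held the KLF box, beside 19.6% of 11062 promoters in bins with a peak at both times and 15.9% of all 32851 promoters. An ESRRB site (CAAGGTCA) was in 1.47% of lost-bin promoters and 1.33% of all, and an octamer (ATTTGCAT) in 1.47% and 1.60%. The ETS box (CCGGAAG) was in 6.16% of lost-bin promoters, 13.2% of those in bins that kept the peak and 6.91% of all. None of the 4 strings contains another, and these shares are descriptions without a test.

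At 0 h, 8811 of the 9367 contacts were in the authors' list, and at 24 h 4299 were. Of the 9367, 5068 (54.1%) were in the 0 h list alone, 3743 (40.0%) in both and 556 (5.94%) in the 24 h list alone. Part of this follows from how the lists were made, because every listed pair has a peak of the list's own time at 1 anchor or both. The 3102 pairs that join a lost peak to a bin with no peak, and the 312 that join a pair of lost peaks, can therefore be in the 0 h list alone. The comparison that the lists allow is for the 5953 pairs that join a lost peak to a peak kept at both times.

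**Figure D1:**
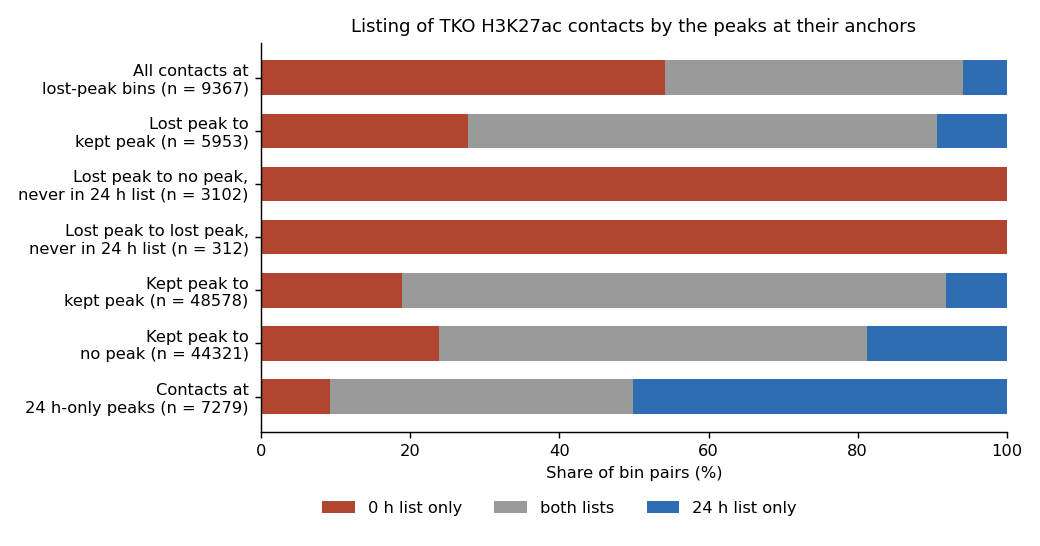
Share of bin pairs (x axis, percent) in the 0 h list only, both lists or the 24 h list only, for 7 classes of TKO pairs given by the peaks at their anchors (y axis). Lost-to-kept pairs split 27.8%, 62.9% and 9.34%, and kept-to-kept pairs 18.8%, 73.0% and 8.17%. The classes that the list definition ties to 0 h are in the 0 h list only.

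Lost-to-kept pairs were in the 0 h list alone in 27.8%, in both lists in 62.9% and in the 24 h list alone in 9.34% (95% Wilson intervals 26.7 to 28.9, 61.6 to 64.1 and 8.63 to 10.1, for counting error only). For 48578 pairs with kept peaks at both anchors these shares were 18.8%, 73.0% and 8.17%. Of the 0 h list, 69.4% of lost-to-kept pairs were also listed at 24 h, 79.5% of kept-to-kept pairs and 70.6% of pairs of a kept peak and no peak. In most lost-to-kept pairs the contact was thus still listed when the peak at 1 end was not.
The median distance between bins of contacts at lost peaks was 20 kb, 30.7% joined neighbouring bins, 20.2% spanned 50 kb or more, and the longest spanned 420 kb. Over all TKO pairs the median was 30 kb, and for pairs at peaks of 24 h alone it was 20 kb, with 33.6% between neighbours and 17.7% at 50 kb or more. Lost-to-kept pairs by themselves had a median of 30 kb. Those in the 24 h list alone spanned 50 kb or more in 38.5%.
Pairs of the 0 h list alone were weaker than those in both lists, with median mean values of 5.42 and 7.42 CPM at 0 h, where CPM is the authors' count per M contacts of the same chromosome. Their weakest library was under 4 CPM, just above the authors' limit of 3, in 37.0% of pairs, against 14.7% of the pairs in both lists. Over all TKO pairs of the 0 h list alone the median was 4.60 CPM and this share was 55.5%. For all TKO pairs in both lists these were 7.47 CPM and 15.0% at 0 h.
When each anchor was allowed to lie 1 bin away, 90.4% of the lost-to-kept pairs of the 0 h list had a 24 h partner.

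The contacts sat on 2659 bins that lost their peak. A gene start was assigned by the authors to 487 of these bins (18.3%), with 565 genes, against 30.04% of the 24982 bins with a peak at both times. A lost bin held a median of 3 of these contacts, 610 bins held 1 and 102 held 10 or more. Counting only lost-to-kept pairs, which both lists can hold, 1037 of 2193 lost bins (47.3%) had fewer of them in the 24 h list than in the 0 h list, 877 (40.0%) had equal numbers and 279 (12.7%) had more. Mean lost-to-kept contacts of these bins were 2.46 at 0 h and 1.96 at 24 h, and 406 bins (18.5%) had none at 24 h. The 24 h list as a whole is smaller, with 84256 pairs against 93248 at 0 h. Bins with a peak at both times had a mean of 5.37 contacts of any kind at 0 h and 4.83 at 24 h. The share of those bins with fewer contacts at 24 h was not counted.
The 10 bins with most contacts held 14 to 19 each, on chromosomes 7, 8, 10, 17, 18, 19 and X. Between 1 and 14 of these joined a partner that lost its peak or had none, which the 24 h list cannot hold, so counts at both times are given below for partners that kept their peak.

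**Figure D2:**
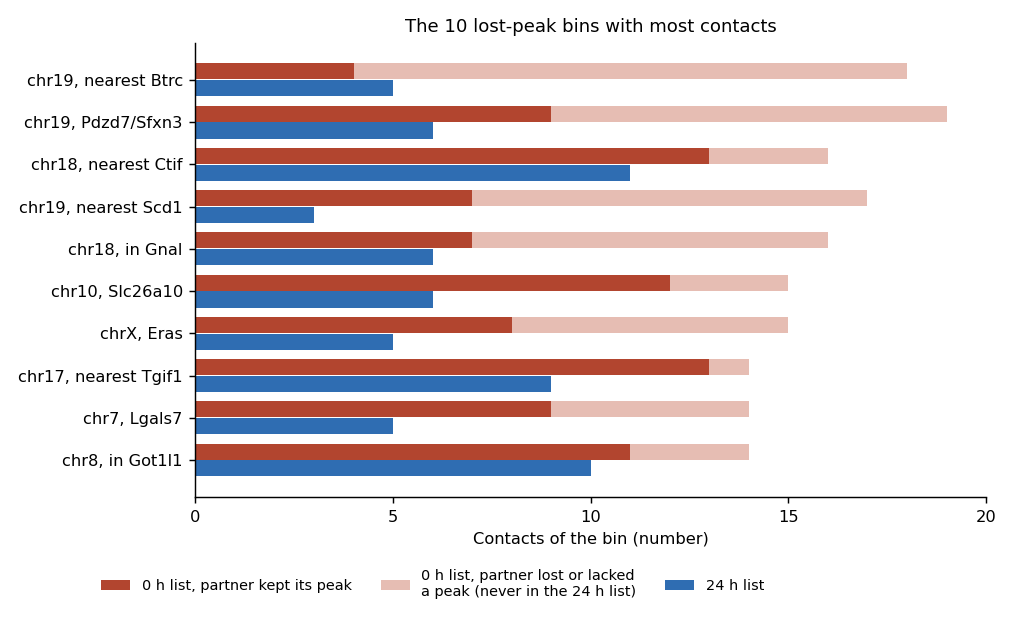
Number of lost-peak contacts (x axis) in the 0 h list, divided by whether the partner kept its peak, and in the 24 h list, for the 10 lost-peak bins with most of them, named by chromosome and gene (y axis). With kept partners, 9 bins had fewer in the 24 h list, from 7 against 3 at the bin nearest Scd1 to 11 against 10 at the bin in Got1l1, and the first bin had 4 against 5. The ranking favours bins with many contacts at 0 h, so these differences are descriptions.

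The bin of Sfxn3, a mitochondrial serine carrier, and Pdzd7, a scaffold of sensory hair cells (chr19:45040001-45050000), had 9 contacts with kept peaks at 0 h and 6 at 24 h, and 10 more that could be listed at 0 h alone. Its partners lay up to 120 kb away and included the bins of Lzts2, Twnk, Mrpl43, Kazald1 and Tlx1. The 6 contacts in both lists summed to 184, 201 and 168 contacts per 100 M contacts of the library at 0 h and 149, 171 and 155 at 24 h, and these ranges overlapped.
The Eras bin (chrX:7920001-7930000) had 8 contacts with kept peaks at 0 h and 5 at 24 h, and 7 others at 0 h. Eras encodes a Ras-like protein of ES cells that supports their growth. Its 5 contacts in both lists joined it to the bins of Hdac6, Pqbp1 with Timm17b, and Glod5 and to a pair of bins without a gene, and summed to 176, 184 and 169 per 100 M at 0 h and 109.8, 142 and 148 at 24 h, so the times did not overlap. Parental ES cells had 14 H3K27ac contacts at this bin, MEFs had 0, and no ES KLF4 contact was listed there.
The Lgals7 bin (chr7:28860001-28870000), of a galectin gene, had 9 contacts with kept peaks at 0 h and 5 at 24 h, and 5 others at 0 h. The 5 shared contacts reached Hnrnpl, Ech1 and Lgals4 and summed to 204, 227.5 and 214 at 0 h and 192, 184 and 164 at 24 h, again without overlap. It held 8 ES KLF4 contacts and 8 MEF H3K27ac contacts.
The bin with most ES KLF4 contacts, 16, was chr19:45300001-45310000, which holds the RefSeq gene Gm29595. Of its 18 contacts at 0 h, 14 had a partner that ties them to the 0 h list. With kept peaks it had 4 contacts at 0 h and 5 at 24 h, and the 4 in both lists summed to 214, 210.0 and 183 at 0 h and 148, 136 and 131 at 24 h. Partners included Btrc, a ubiquitin ligase subunit, and the homeobox gene Lbx1.
The bin at chr19:44370001-44380000, 14.5 kb from Scd1 (a fatty acid desaturase), had 7 contacts with kept peaks at 0 h and 3 at 24 h, and 10 others at 0 h. The 3 in both lists summed to 156, 135 and 149 at 0 h and 95.1, 100.3 and 92.4 at 24 h.
A bin at chr18:75410001-75420000, with Smad7 (an inhibitor of TGF-beta and BMP signals) among its partners, had 13 contacts with kept peaks at 0 h and 11 at 24 h. Its 10 shared contacts summed to 301, 292 and 293 at 0 h and 287, 286 and 305 at 24 h, and these groups overlapped.
The remaining bins lay in Gnal (7 contacts with kept peaks at 0 h and 6 at 24 h), at Slc26a10 (12 and 6), 26.5 kb from Tgif1, a repressor of TGF-beta responses (13 and 9), and in Got1l1 (11 and 10).

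For the 3743 contacts in both lists, the median log2 ratio of 24 h to 0 h in CPM was -0.16, with -0.22 to -0.12 over the 9 pairs of libraries, and 72.1% had a lower mean at 24 h. Over all 67728 TKO pairs in both lists the median was -0.11 and 65.4% were lower. Kept-to-kept pairs had a median of -0.15, pairs of a kept peak and no peak -0.06, and pairs with a peak of 24 h alone -0.01. These directions depend on the scaling. With TMM-scaled counts the median was -0.05 for contacts at lost peaks (57.2% lower), 0.01 for all pairs (48.9% lower), -0.03 for kept-to-kept pairs, 0.05 for a kept peak and no peak, and 0.10 for pairs with a peak of 24 h alone. In CPM, in 815 of the 3743 (21.8%; 17.2% of all pairs) each 24 h library lay below each 0 h library, and in 84 (2.24%; 3.90% of all pairs) each lay above.
edgeR's quasi-likelihood fit over all 67728 pairs, at a Benjamini-Hochberg adjusted p under 0.05, called 93 of the 3743 contacts, 86 lower and 7 higher at 24 h. The call rate over all pairs was 2.62%, with 2.04% lower and 0.576% higher. Because the same contrast chose the contacts, nothing is read from this count. It moved to 184 (182 lower, 2 higher; 4.92%, against 4.17% of all pairs) with contact totals in place of TMM factors, which shifts the median log2 change of all pairs by -0.11. It was 56 without the third library of 0 h, and 58, 49 and 47 without the first, the second and the third library of 24 h. DESeq2 called 1 of the 90 contacts to which it gave an adjusted p.

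The named falls lay mostly away from gene starts. The steepest was a cluster on chromosome 11, where 3 adjoining lost-peak bins contact 1 bin that kept its peak (chr11:46560001-46570000, which holds the pseudogene Rpl9-ps2). For the bin at chr11:46530001-46540000, in Gm12169, the libraries had 91.0, 104 and 106 contacts per 100 M at 0 h and 23.4, 36.4 and 39.4 at 24 h, a fitted log2 change of -1.44 (SE 0.17). Its neighbour at chr11:46520001-46530000 had 82.8, 108 and 91.9 at 0 h and 46.8, 36.4 and 25.9 at 24 h (-1.27, SE 0.17), and the bin at chr11:46540001-46550000 had 96.4, 112 and 86.9, then 46.8, 40.3 and 53.0 (-0.99, SE 0.16). In these 3 contacts every 24 h library was below every 0 h library, and none of the 4 bins was an ES KLF4 anchor. Only the contact of chr11:46520001-46530000 was in the parental ES H3K27ac list, with 18.6 and 20.2, below its values in TKO cells at both times.
On chromosome X, a lost bin in Ocrl (chrX:47930001-47940000), which encodes an inositol phosphatase, contacted the next bin with 49.1, 45.5 and 47.2 at 0 h and 11.7, 20.6 and 25.9 at 24 h (-1.14, SE 0.23). Parental ES cells gave 28.8 and 42.7 in H3K27ac and 14.9 to 25.1 in KLF4 HiChIP. Both bins were ES KLF4 anchors.
A pair on chromosome 14 (chr14:91460001-91470000 with the next bin), far from any coding gene, had 62.8, 68.8 and 91.9 at 0 h and 20.5, 41.3 and 22.2 at 24 h (-1.20, SE 0.19). It was among the ES KLF4 contacts, with 25.2 to 55.4 over 4 libraries.
A kept-peak bin 65.5 kb from Magi1, a junction scaffold gene (chr6:93600001-93610000), contacted lost bins 30 kb and 10 kb away, with log2 changes of -1.09 (SE 0.18) and -0.99 (SE 0.18). The 30 kb contact had 57.3, 94.5 and 79.5 at 0 h and 41.0, 31.5 and 27.1 at 24 h.
The pair chr13:56190001-56200000 with chr13:56220001-56230000 had 36.4, 52.5 and 59.6, then 20.5, 22.6 and 20.9 (-1.05, SE 0.22).

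**Figure D3:**
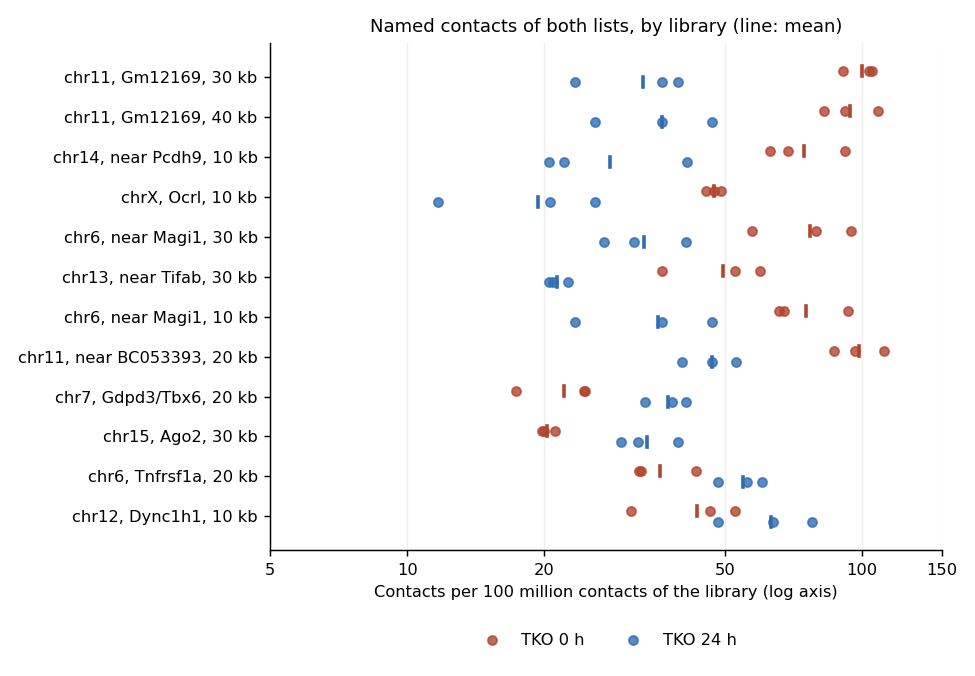
Contacts per 100 M contacts of the library (x axis, log scale) in the 3 libraries of 0 h and the 3 of 24 h for the 8 largest falls and 4 largest rises among called contacts (y axis: chromosome, gene at or nearest the bins, distance between bins). Points are libraries and vertical lines are means, and only the Dync1h1 contact has overlapping groups.

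Among the rises, the contact between the lost bin of Gdpd3 (chr7:126760001-126770000) and the bin of Tbx6, a T-box gene of paraxial mesoderm, had 24.6, 24.5 and 17.4 at 0 h and 41.0, 33.4 and 38.2 at 24 h (0.83, SE 0.23). A contact within Ago2, which encodes an effector of microRNA silencing, had 20.01, 19.8 and 21.1, then 32.2, 29.5 and 39.4 (0.82, SE 0.24). The contact between bins in Tnfrsf1a, a receptor of tumour necrosis factor, and Plekhg6 had 32.7, 43.2 and 32.3, then 48.3, 56.0 and 60.4 (0.73, SE 0.19). The contact within Dync1h1, the heavy chain of dynein, had 46.4, 52.5 and 31.0, then 48.3, 63.9 and 77.6 (0.65, SE 0.18), where 1 library of 0 h exceeded 1 of 24 h. All 4 are in the ES and the MEF Hi-C lists. None of these 4 calls held throughout. The Gdpd3 call was lost in 3 of 6 removals of a library (the third of 0 h and the first and the third of 24 h; log2 change down to 0.69), and that of Ago2 in 5 (all but the second of 24 h; down to 0.70). The Tnfrsf1a call was lost in 4 (the first and the third of 0 h and the second and the third of 24 h; down to 0.67), and that of Dync1h1 in 3 (the third of 0 h and the second and the third of 24 h; down to 0.48). With contact totals the Ago2 and Dync1h1 calls were lost too.

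The strongest contacts of the 0 h list alone, with anchors 20 kb or more apart, had 50.9 to 81.0 contacts per 100 M in each library, although 7 of these 8 belong to the classes that the 24 h list cannot hold. The other joined chr3:51120001-51130000 to the lost bin 30 kb away with 79.1, 65.3 and 70.8, was listed in parental ES cells in both H3K27ac (42.0 and 43.3) and KLF4 (22.9 to 36.6), and was not in the 24 h list. Of the 7, a pair lay in Taok1, a kinase gene, with 54.8 to 72.0, and others lay in Phf3, in Kdm5a (a histone demethylase gene, 60.0, 75.8 and 59.6) and in Ubl3. The Ubl3 contact joins a pair of lost bins and had 56.4, 66.5 and 69.5 in TKO cells, 40.8 and 42.1 in ES H3K27ac, 25.3 and 32.3 in MEF H3K27ac and 35.3 to 38.9 in ES KLF4.
The 4 strongest contacts of the 24 h list alone lay in Tmem131 (39.5, 51.1 and 46.8), in Lamc1, a laminin chain gene (48.3, 33.4 and 50.5), between Sf3a1 and Tbc1d10a (33.7, 35.4 and 50.5) and between the bins of Rangrf and Pfas (39.5, 45.2 and 34.5). In each of these the bin that kept its peak supplies the 24 h peak that listing needs.

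Of 12695 genes with a TKO contact, 2881 (22.7%) had a contact at a lost peak and 565 (4.45%) were in the lost bin. Apart from the housekeeping genes, the gene lists below hold 53 contacts at lost peaks. The fit covered the 35 of them in both TKO lists and called none, so their values at 0 h and 24 h are descriptions. Of 37 measured genes of the naive pluripotency list, 12 (32.4%) had such a contact and 1 (2.70%), Gbx2, was in a lost bin, and 13 of the list's 400 contacts (3.25%; 7.08% over all genes) were at lost peaks. Of these 13, all were in the 0 h list and 11 in the 24 h list. Counting lost-to-kept pairs only, these genes had 12 at 0 h and 11 at 24 h, and all genes had 3387 and 2709.
Gbx2, a homeobox gene of the naive state downstream of LIF and STAT3, had 1 contact, with the next bin, with 30.9, 46.7 and 37.3 per 100 M at 0 h. That bin has no peak, so the 24 h list cannot hold it. The promoters of Dppa2, Dppa4, Dppa5a, Nodal, Nr0b1, Prdm14, Rif1, Sall4 and Spp1 kept their peak and contacted a lost bin, and each of these contacts was in both lists. The authors also assign Tet1 to such a bin, where RefSeq places no coding gene, so it is not described further. Rif1, a chromatin protein of the pluripotency network, had 88.2, 98.0 and 106 at 0 h and 76.1, 86.5 and 85.0 at 24 h. Sall4, a zinc finger factor that works with OCT4, had 31.8, 31.5 and 33.5 and then 29.3, 43.3 and 41.9 with 1 lost bin, and 63.7, 61.8 and 55.9 and then 51.2, 71.8 and 48.0 with another. For Rif1 the 24 h libraries all lay below the 0 h libraries, although the contact was not called, and for both Sall4 contacts the groups overlapped. The contact of Jarid2, a partner of Polycomb repressive complexes, over 140 kb, was in the 0 h list alone (16.4, 15.2 and 26.1).

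Of 21 genes of LIF and other signalling, 7 had contacts at lost peaks, 14 at 0 h and 7 at 24 h. These 14 made up 7.78% of the list's contacts (7.08% over all genes), and 2 of them had a partner that ties them to the 0 h list. Lost-to-kept pairs numbered 12 at 0 h and 7 at 24 h, against 3387 and 2709 over all genes. Id1, an inhibitor of basic helix-loop-helix factors and a target of BMP signals, held 7 of the 14. The choice takes every contact of a lost bin unless the partner holds a 24 h peak alone, so all 7 of Id1 count in that share. Its bin (chr2:152730001-152740000) had no other contact, and 6 of the 7 were in the 0 h list alone. For 2 of the 6 the 24 h list cannot hold the pair, among them the strongest, which joined it to the lost bin next to it, with 66.4, 67.7 and 79.5 at 0 h. Of its 5 contacts with kept peaks, 1 was in the 24 h list. The contact 30 kb away, inside H13, was the 1 in both lists, with 36.4, 57.2 and 47.2 at 0 h and 41.0, 45.2 and 48.0 at 24 h, so its groups overlapped. A pair of contacts that reached Bcl2l1, a gene of cell survival, 80 and 90 kb away had 27.3, 25.7 and 23.6, and 25.5, 24.5 and 22.4, at 0 h, and were not in the 24 h list although Bcl2l1 kept its peaks. Of the 7 Id1 contacts, 5 were in the parental ES H3K27ac list, 5 in the MEF list and 3 in the ES KLF4 list.
Promoters of Bcl3, Junb, Smad7 and Tcf7l1 contacted lost bins in both lists, and that of Id2 in the 0 h list alone (23.6, 19.8 and 37.3). The Smad7 contact, with the many-contact bin on chromosome 18, had 27.3, 31.5 and 55.9 at 0 h and 20.5, 22.6 and 29.6 at 24 h, with overlap. The authors also assign Fgfr2 to 1 such bin, where RefSeq places Ctbp2, so it is not described further.

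Of 19 measured KLF and SP genes, 9 had contacts at lost peaks, and Klf8 and Sp6 were in lost bins. There were 21 such contacts at 0 h (3 of them with a partner without a peak) and 14 at 24 h. They made up 12.9% of the list's contacts (7.08% over all genes). As genes in lost bins, Klf8 and Sp6 enter this share by the choice with all 7 and all 6 of their contacts. Lost-to-kept pairs numbered 18 at 0 h and 14 at 24 h, against 3387 and 2709 over all genes. Klf8 (chrX:153230001-153240000) had 7 contacts at 0 h and 2 at 24 h, none of which was in the MEF or ES KLF4 lists, and 6 were in the ES H3K27ac list. Its contact 50 kb away, within the gene, had 17.3, 20.997 and 19.9 at 0 h and 14.6, 8.85 and 9.85 at 24 h. The groups did not overlap, but the change was not called (log2 -0.72, SE 0.27). Its contact 20 kb away had 23.6, 18.7 and 21.1, then 22.0, 16.7 and 17.2, with overlap.
Sp6 (chr11:97010001-97020000) kept all 6 of its contacts in the 24 h list. The contact with the next bin, at Scrn2, had 84.6, 61.8 and 77.0 at 0 h and 65.9, 65.9 and 57.9 at 24 h, and that with Sp2, 30 kb away, had 40.9, 38.5 and 69.5, then 62.9, 41.3 and 40.6. Both overlap. All 6 partners of Sp6 kept their peak. Klf8 had 4 such partners, 2 of which were in the 24 h list, and its other 3 contacts joined bins without a peak.
The promoters of Klf1, Klf3, Klf9, Klf10, Klf16, Sp1 and Sp2 kept their peak. Klf3, with 2 contacts at lost peaks, kept 1 of them at 24 h, the Klf1 contact was in the 0 h list alone (36.4, 31.5 and 43.5), and the others were in both lists.
Among 19 genes of chromatin architecture and coactivators, 5 had such contacts, none in a lost bin. The contact of Crebbp, an H3K27 acetyltransferase, had 37.3, 30.3 and 29.8 at 0 h and 24.9, 22.6 and 19.7 at 24 h, lower in every library but not called. Those of Smarca4 and Med1 overlapped, and the Smc3 contact was in the 24 h list alone.
Of 192 housekeeping genes, 44 had contacts at lost peaks, 60 at 0 h (59 with kept peaks) and 49 at 24 h, and none was in a lost bin. Contacts at lost peaks were 4.62% of all contacts of these genes, against 7.08% over all genes. Eomes was the 1 of 7 measured formative and primed genes with such a contact, listed at 24 h alone (19.03, 20.6 and 17.2), and none of 4 trophoblast and primitive endoderm genes had one.

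KLF4 HiChIP of ES cells, which the choice of contacts did not use, placed an ES KLF4 anchor (a bin in any listed ES KLF4 contact) at 1184 of the 2679 lost-peak bins, or 44.2% (95% Wilson interval 42.3 to 46.1). The share was 51.1% in bins with a peak at both times, 29.5% in bins with a 24 h peak alone and 30.8% in bins without a peak. These shares rose with the number of contacts a bin has, so they were also set side by side within bands of that number. With 1 contact at 0 h, 21.7% of lost and 14.7% of kept bins were KLF4 anchors. With 4 to 6 contacts the shares were 58.5% and 55.5%, and with 11 or more 83.3% of 54 lost bins and 88.6% of kept bins. Bins with no peak had 23.5% and 63.2% at 1 contact and at 4 to 6. At 2 to 3 contacts the shares were 38.8% in lost, 33.5% in kept and 41.7% in no-peak bins. At 7 to 10 contacts they were 74.7%, 73.6% and 80.2%, so up to 10 contacts lost bins lay between kept and no-peak bins. With 11 or more contacts, 88.0% of 25 no-peak bins were KLF4 anchors.

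**Figure D4:**
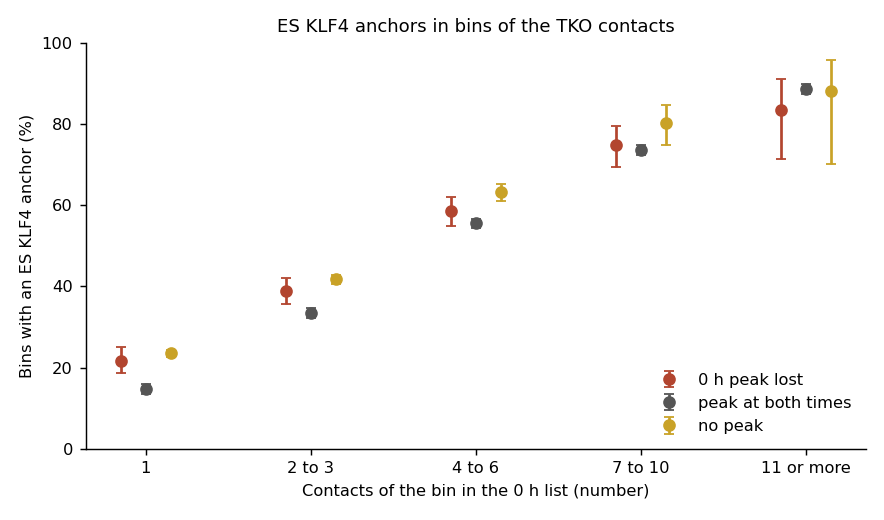
Share of bins that are ES KLF4 anchors (y axis, percent, with 95% Wilson intervals) by the number of contacts of the bin in the 0 h list (x axis), for bins that lost their peak, kept it or had none. Shares rise from 21.7% to 83.3% in lost-peak bins, and at 1 contact they are 14.7%, 21.7% and 23.5% in kept, lost and no-peak bins.

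Of the 9367 contacts, 74.6% had an ES KLF4 anchor at either end, beside 76.1% of all TKO pairs, 57.7% had one at the lost bin and 44.5% at both ends. Among contacts in both lists, those with and without a KLF4 anchor at the lost bin had the same median log2 ratio of 24 h to 0 h, -0.16 (n = 2371 and 1372). The contacts themselves were in the ES KLF4 list in 20.8% (17.8% of all TKO pairs), in the day 3 KLF4 list in 12.5% (11.6%) and in the parental ES H3K27ac list in 49.4% (57.4%). They were in the MEF H3K27ac list in 19.5% (20.1%), and in the ES and MEF Hi-C lists in 55.8% (48.4%) and 41.8% (34.7%). Pairs at peaks of 24 h alone were in the ES and MEF Hi-C lists in 58.0% and 44.4%, so the higher Hi-C shares are not particular to lost peaks.
Contacts of the 0 h list alone were in the parental ES H3K27ac list in 33.7%, those in both lists in 72.9% and those of 24 h alone in 33.8%. For the ES KLF4 list the shares were 15.7%, 29.6% and 7.37%. Pairs with kept peaks that were in the 0 h list alone were in the ES KLF4 list in 4.98% and in the ES Hi-C list in 32.0%, where the contacts at lost peaks of the 0 h list alone were in the ES Hi-C list in 53.6%. The latter include the pairs that the 24 h list cannot hold, so the sets are not alike. Their distances and strengths were not compared.

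The comparison of MEF with parental ES H3K27ac did not enter the choice and was tested. Of the 9367 contacts, 1172 were in both lists, and the quasi-likelihood test of edgeR, adjusted by Benjamini-Hochberg over all 17901 common pairs, called 319: 103 (8.79%) higher and 216 (18.4%) lower in ES than in MEF. Over all common pairs 32.0% were called, 17.6% higher and 14.4% lower in ES. The 836 common pairs at peaks of 24 h alone had a like split, with 7.30% higher and 18.9% lower in ES. The median log2 change was -0.11 for contacts at lost peaks, -0.19 for pairs at peaks of 24 h alone and -0.04 for all. The split of contacts at lost peaks depends on scaling. With contact totals in place of TMM factors, 201 were higher and 115 lower in ES (26.99% and 7.97% of all pairs). That scaling moves the median of all pairs by 0.25. Without the second MEF library 161 were called (13.7%, against 18.6% of all pairs). The ES libraries held 166 and 168 M contacts and the MEF libraries 74.98 and 105 M, and the part of this difference in the counts was not tested.
The largest MEF-side contact joined the bin of S100a4, a calcium-binding protein common in fibroblasts, to a lost bin at S100a3 (chr3:90580001-90590000). It had 90.7 and 113 contacts per 100 M in MEF and 21.02 and 18.4 in ES (log2 -2.64, SE 0.19, edgeR adjusted p = 3.8e-16). The contact was at 18.2, 44.3 and 21.1 in TKO cells at 0 h, where its partner had no peak.
The lost bin of Emp1, a membrane protein gene (chr6:135360001-135370000), had a contact 30 kb away with 84.0 and 91.3 in MEF and 18.0 and 20.2 in ES (-2.45, SE 0.20, edgeR adjusted p = 1.4e-14). In KLF4 HiChIP this contact had 51.5, 56.7 and 42.1 at day 3 and 17.1 to 34.7 in ES. The lost bin of Synpo, an actin-associated protein gene (chr18:60660001-60670000), had 48.0 and 43.7 in MEF and 12.6 and 13.7 in ES (-2.03, SE 0.24, edgeR adjusted p = 2.1e-09). All 3 MEF-side contacts were in the 0 h list and not the 24 h list, each joining a lost peak to a bin without one, which the 24 h list cannot hold.
On the ES side, the contact between a lost bin in Grtp1 and the Grtp1 start had 86.5 and 79.5 in ES and 22.7 and 18.1 in MEF (1.80, SE 0.22, edgeR adjusted p = 5.6e-09). That of the bin of Pim3, a kinase gene, had 128 and 141 in ES and 29.3 and 39.9 in MEF (1.67, SE 0.18, edgeR adjusted p = 5.0e-11), and that of Zfp428 had 108 and 113, against 21.3 and 39.0 (1.55, SE 0.19, edgeR adjusted p = 4.5e-09). These 3 were in both TKO lists, with Pim3 at 98.2, 114 and 93.1 at 0 h and 67.3, 80.6 and 83.8 at 24 h.

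**Figure D5:**
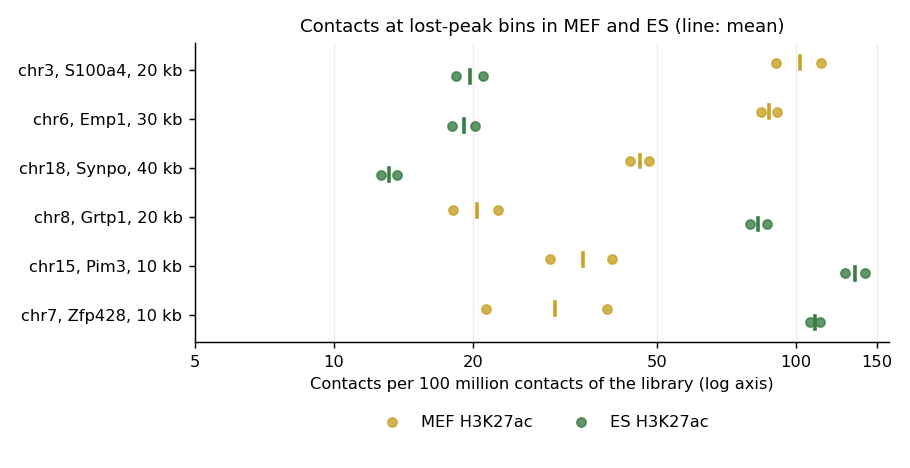
Contacts per 100 M contacts of the library (x axis, log scale) in the 2 MEF and the 2 ES H3K27ac libraries for the 3 largest changes in each direction (y axis: chromosome, gene of the bins, distance). Points are libraries and vertical lines are means, and the groups do not overlap in any of the 6 contacts.

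KLF4 contacts of day 3 cells and ES cells were also independent of the choice. Of the 9367 contacts, 617 were in both KLF4 lists, and the same edgeR test, adjusted over 7387 common pairs, called 52: 13 higher and 39 lower in ES. Over all common pairs 7.20% were called, 3.02% higher and 4.18% lower. The count was 31 without the fourth ES library (5.02%, against 4.36% of all pairs), and 27, 24 and 17 without the first, the second and the third day 3 library (4.38%, 3.89% and 2.76%, against 3.44%, 3.47% and 1.83%).
A lost bin in Myof, a membrane repair gene (chr19:37950001-37960000), contacted the start of Myof 90 kb away with 38.6, 31.7 and 22.2 KLF4 contacts per 100 M at day 3 and 4.90 to 15.8 in 4 ES libraries (log2 -1.56, SE 0.27, edgeR adjusted p = 1.5e-05). It also contacted the start of Cep55, a gene of cell division, with 31.3, 35.3 and 41.0 at day 3 and 7.91 to 20.6 in ES (-1.52, SE 0.25, edgeR adjusted p = 6.5e-06). A contact within Asap2, which encodes an Arf regulator, had 51.5, 56.7 and 41.5 at day 3 and 15.4 to 18.6 in ES (-1.47, SE 0.22, edgeR adjusted p = 3.8e-07). In these 3 contacts each day 3 library was above each ES library, and in TKO cells all 3 were in both lists.
The 3 largest rises were smaller. The bin of Mast3 and Il12rb1 had 44.1, 33.9 and 27.1 at day 3 and 42.2 to 85.9 in ES (0.83, SE 0.21, edgeR adjusted p = 0.0043), with overlap. The contact between Mcoln1, a lysosomal channel gene, and Pnpla6 had 25.7, 35.3 and 33.8 at day 3 and 45.1 to 75.2 in ES (0.79, SE 0.20, edgeR adjusted p = 0.0060). The Lamp2 contact, at a lysosomal membrane protein gene, had 18.4, 12.5 and 15.5 at day 3 and 14.5 to 32.8 in ES (0.79, SE 0.25, edgeR adjusted p = 0.032), with overlap. Each of these 3 calls was lost when at least 1 library was left out: the adjusted p rose to 0.15 for Mast3 without the third day 3 library, to 0.069 for Mcoln1 without the first, and to 0.26 for Lamp2 without the second. The removals that ended the Mast3 call also took in the first ES library and the second of day 3, those of Mcoln1 the second and the third of day 3, and those of Lamp2 the second and the fourth of ES and the first and the third of day 3. With DESeq2 the adjusted p was 0.20 for Mast3 and 0.18 for Mcoln1. The Lamp2 call was also lost with the replicate block (log2 0.54, edgeR adjusted p = 0.35) and with contact totals (edgeR adjusted p = 0.073).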

How the data were processed

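H3K27ac and KLF4 HiChIP and Hi-C contacts were analysed from the lists of 10 kb bin pairs that the authors deposited. Reads were aligned with Bowtie2 2.2.3 to mm10, per the submitters' processing notes, and the contact caller is not given in the sources used here. Per the file headers, the lists hold a raw count per library and a CPM per library, which the values show to be per M contacts of the same chromosome and above 3 in the H3K27ac lists. The authors' FDR (an adjusted p-value per pair, by a test that the sources do not state) was used only to describe the lists. It was under 0.1 in 0.395% of contacts at lost peaks of the 0 h list alone (0.404% of all such TKO pairs). For contacts at lost peaks in both lists the share at 0 h was 5.53% (10.5% of all such TKO pairs). Both TKO lists carry the authors' gene names and peaks.

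The contacts and gene lists described here were chosen with earlier results of these data known. From the counts, contacts per 100 M contacts of each library were computed. Libraries whose counts agreed within sampling noise (chi-square p of 0.01 or more, over pairs of 6 CPM or more, where another pair of the group differed) were summed and counted as 1 sample, although labels call them replicates. That joined libraries 2 and 3 of TKO 0 h, 1 and 3 of TKO 24 h, and 1 with 2 and 3 with 4 of ES KLF4, leaving 2 samples in each. Values are still given for every library.

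Pairs in both lists were tested in R 4.3.3 with edgeR 4.0.16 (quasi-likelihood, filterByExpr, TMM factors on contact totals, Benjamini-Hochberg adjustment over all common pairs, threshold 0.05), and in DESeq2 1.42.0 as an alternative. The edgeR fit was first tested on simulated counts. PCR copies are not independent molecules, so Wilson intervals cover counting error only. Bins were annotated from RefSeq on GRCm38.p6. Named contacts are the 8 largest falls and 4 largest rises called in TKO, the 8 strongest of 0 h alone and 4 of 24 h alone at 20 kb or more, the 10 lost-peak bins with most contacts, the 3 largest called changes each way in the other tests, and list genes. Day 6 KLF4 was used only for listing, and domain lists were not used here. Tables were handled in Python 3.11.15.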

Additional observations from a re-analysis of the deposited data

Results flagged for a closer look

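The ES KLF4 contact within Asap2, between chr12:21180001-21190000 and chr12:21220001-21230000, had 1 library apart from the others: 15.4 contacts per 100 M contacts of the library in the second, beside 18.3, 18.5 and 18.6. It was the 1 of 6 such contacts in which the gap to the nearest library was large for the range of 4 libraries, a rule that chance meets in about 1 of 20 groups.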

How the results depend on the processing

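Of 24 named contacts with a fitted change, none changed direction under the alternatives that gave a value, but in 32 of 240 cases the call was lost, all at the 4 rises in TKO cells and the 3 contacts higher in ES in KLF4. In TKO cells the 93 calls among contacts at lost peaks became 184 with contact totals in place of TMM factors (4.92%; 4.17% of all pairs), 1 with DESeq2 and 1 of 659 at 50 kb or more (0.152%; 0.849%), and 47 to 67 with a library left out. With a replicate block and libraries kept separate they were 96. For MEF against ES, the 319 calls (103 higher and 216 lower in ES) became 101 with DESeq2 (31 and 70; 8.62%, against 13.4% of all pairs), 31 of 158 at 50 kb or more (12 and 19; 19.6%, against 23.9%), and 201 and 115 with contact totals. With a library left out they were 161 to 272 (56 to 92 higher and 105 to 180 lower), and with the replicate block 331. For KLF4 at day 3 against ES, the 52 calls became 29 with contact totals (4.70%, against 3.84% of all pairs), 9 with DESeq2 (1.46% and 0.866%), 8 of 87 at 50 kb or more (9.20% and 6.83%) and 17 to 55 with a library left out, and 35 with the replicate block. Same-numbered libraries did not deviate together (correlations of -0.05 to 0.03), and not every TKO library correlated best with its own number. Deviations at such counts hold much counting noise, and with 2 libraries per group the MEF and ES values mirror each other by construction. The check therefore cannot settle whether the numbers pair the samples, which the main fits took as unpaired. The median log2 change in TKO cells of contacts in both lists was -0.047 in place of -0.16 with TMM-scaled counts, and over all pairs 0.007 in place of -0.11.

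The share of contacts in the 24 h list was 0 where a lost peak lay at both anchors, by construction, and 74.0% with each anchor allowed 1 bin away. Of lost-to-kept pairs of the 0 h list, 90.4% were kept with that allowance and 71.3% with 1 count cutoff for all chromosomes. An ES KLF4 anchor at either end was found in 81.3% within 1 bin, 73.5% without chromosome 19 and 68.9% with ES KLF4 contacts above 3 CPM in all 4 libraries, and at the lost bin in 72.7%, 56.5% and 50.6%. With each anchor allowed 1 bin away, 74.5% of contacts were in the ES H3K27ac list, 41.6% in the MEF list, 48.6%, 30.1% and 10.1% in the KLF4 lists of ES, day 3 and day 6, and 86.2% and 74.9% in the ES and MEF Hi-C lists. The cause of these moves was not tested, beyond the wider match or fewer pairs that each setting brings. With a median of 22 to 35 counts per library, changes in single contacts of TKO cells carry wide errors.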
